A study of Mus musculus with 8 samples.

Results

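The 6 genes described here are Cyp4a10, Cyp4a12a, Cyp4a12b, Cyp4a14, Cyp4a31 and Cyp4a32, which encode cytochrome P450 fatty acid hydroxylases. They were taken by their symbols from a table of RNA-seq read counts for 46078 genes, and all 6 passed the filter on low counts that left 14654 genes for testing. The table holds livers of 5 wild-type (WT) mice, with the genotype Alb_cre- Rbfox2 LoxP/LoxP, and of 3 Rbfox2 KO mice, with the genotype Alb_cre+ Rbfox2 LoxP/LoxP. The product of Rbfox2 binds RNA and controls alternative splicing, and Cre driven by the albumin promoter deletes the gene in hepatocytes, so other liver cells keep it. All 8 mice were C57BL6/J and drank water with fructose at 30% (w/v) for 22 weeks, starting at 8 weeks of age, and livers were collected after fasting. The methods give male mice as the default. The comparison asks which transcripts differ in the liver when this splicing regulator is deleted from hepatocytes on an obesogenic diet, here for the Cyp4a genes.

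Enzymes of the CYP4A subfamily sit in the endoplasmic reticulum and add a hydroxyl group to the last (omega) carbon of fatty acids such as lauric and arachidonic acid, with electrons passed on by P450 reductase. Alcohol and aldehyde dehydrogenases then oxidise the product to a dicarboxylic acid, which peroxisomes shorten. In mouse liver Cyp4a10 and Cyp4a14 are textbook targets of the fatty acid receptor PPARalpha and are induced by fasting and fibrates, whereas Cyp4a12a is a male-predominant, androgen-dependent gene and encodes an arachidonic acid hydroxylase.

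All members lie in a cluster on chromosome 4 of GRCm38 and are annotated as protein-coding, on the plus strand except for Cyp4a14 on the minus strand. In order along the chromosome, Cyp4a12a (ENSMUSG00000066071) spans chr4:115299046-115332815 and Cyp4a12b (ENSMUSG00000078597) spans chr4:115411624-115439034. They are followed by Cyp4a14 (ENSMUSG00000028715) at chr4:115486200-115496142 and Cyp4a10 (ENSMUSG00000066072) at chr4:115518264-115533649. Cyp4a31 (ENSMUSG00000028712) at chr4:115563649-115579015 and Cyp4a32 (ENSMUSG00000063929) at chr4:115600969-115621602 close the cluster. Cyp4a12b overlaps Gm12837 on the other strand, but 0 exon bases are shared. The coding sequences are 1521 to 1527 bases long and encode 507 to 509 residues.

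By sequence the members form a pair, a trio and a single gene. The coding sequences of Cyp4a12a and Cyp4a12b differ at 23 of 1524 bases (98.5% identity). Those of Cyp4a10 and Cyp4a32 are 97.2% identical, those of Cyp4a10 and Cyp4a31 96.6%, and those of Cyp4a31 and Cyp4a32 96.0%. Cyp4a14 is the most distant member, with 74.9% to 75.8% identity to the other 5.

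The stretch around the haem-binding motif of P450 enzymes shows how close the copies are. It spans the junction of exons 11 and 12 in each gene, within chr4:115529487-115532558 for Cyp4a10, chr4:115328971-115331861 for Cyp4a12a and, on the minus strand, chr4:115487284-115489820 for Cyp4a14. It is printed below for 1 member of each sequence group, with capitals where a base differs from Cyp4a10. Cyp4a31 and Cyp4a32 have the same 60 bases as Cyp4a10, and Cyp4a12b has the same 60 bases as Cyp4a12a.
Cyp4a10: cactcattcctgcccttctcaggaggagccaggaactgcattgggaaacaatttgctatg
Cyp4a12a: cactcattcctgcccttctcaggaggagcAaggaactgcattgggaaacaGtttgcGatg
Cyp4a14: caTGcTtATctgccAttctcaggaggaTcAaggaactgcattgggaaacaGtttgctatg

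Reads can be told apart only where the copies differ. The next sequences show such a place for the trio, coding bases 200 to 259 in exon 2, with capitals at the 9 positions where the 3 genes are not all alike. The stretches lie at chr4:115519640-115519699, chr4:115565020-115565079 and chr4:115602270-115602329, all on the plus strand.
Cyp4a10: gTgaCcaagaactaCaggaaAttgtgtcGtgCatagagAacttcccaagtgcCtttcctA
Cyp4a31: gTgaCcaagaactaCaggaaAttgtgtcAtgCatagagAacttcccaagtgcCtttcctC
Cyp4a32: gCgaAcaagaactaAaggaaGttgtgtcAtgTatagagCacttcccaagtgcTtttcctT

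For the pair, coding bases 624 to 683, across the junction of exons 5 and 6 within chr4:115326309-115326681 and chr4:115432561-115432934, hold 4 differing bases, in capitals.
Cyp4a12a: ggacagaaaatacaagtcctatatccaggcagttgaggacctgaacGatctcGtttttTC
Cyp4a12b: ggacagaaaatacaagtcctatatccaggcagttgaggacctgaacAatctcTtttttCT

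Over whole transcripts, 35.8% of the 100-base stretches of Cyp4a12a, the length of a read, also occur in Cyp4a12b, and 36.2% of those of Cyp4a12b occur in Cyp4a12a. The longest run of identical coding bases in this pair is 342. Within the trio, stretches shared with at least 1 other gene make up 18.2% for Cyp4a32, 12.2% for Cyp4a10 and 7.33% for Cyp4a31. Cyp4a14 shares 0 stretches. No gene outside the 6 holds any of these stretches. How reads with several alignments were counted is not given in the sources used here, so the values of all members except Cyp4a14 are uncertain to that extent.

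**Figure D1:**
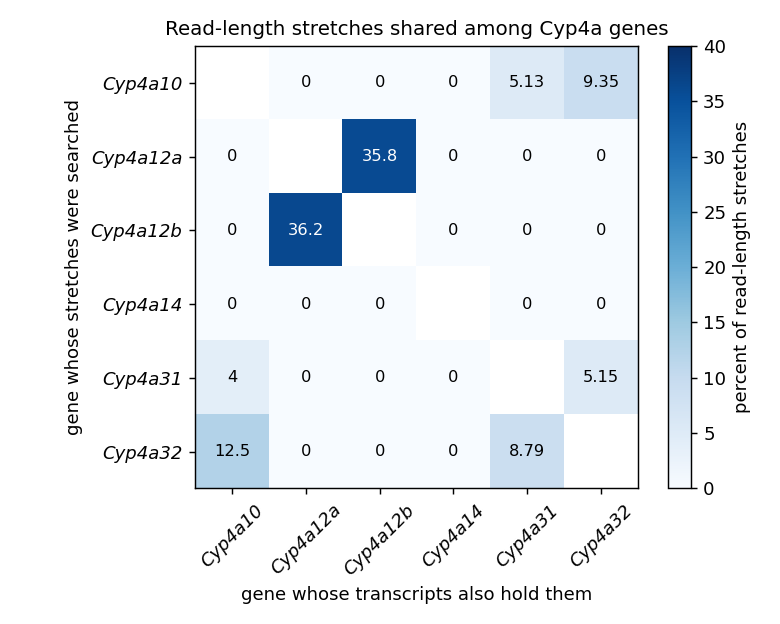
Percent of the 100-base stretches of each Cyp4a gene (rows) that also occur in transcripts of another Cyp4a gene (columns), from reference transcripts. Sharing is 35.8% and 36.2% between Cyp4a12a and Cyp4a12b, 4.0% to 12.5% within the group of Cyp4a10, Cyp4a31 and Cyp4a32, and 0 for Cyp4a14.

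Total counts ran from 24829693 to 37823155 per library, and p-values measure the spread between these mice. Rbfox2 KO 1 stood apart from the other libraries. It had the lowest share of counts in 21 major urinary protein genes (6.54%, where the highest was 35.3%) and the highest scaling factor (1.29). Summed markers of the exocrine pancreas reached 461 CPM there (read counts scaled to library size), against 4.88 to 17.5 CPM in WT. The results of the members are therefore also given without this library. Transcripts of other tissue were not confined to Rbfox2 KO 1. Summed skeletal muscle markers were at 259 CPM in WT 4, 366 CPM in WT 5 and 211 CPM in Rbfox2 KO 1. In the remaining libraries they were at 1.22 to 44.2 CPM. Rbfox2 was at 18.9 ± 3.39 CPM in WT livers (SD, n = 5) against 9.28 ± 2.84 CPM in Rbfox2 KO livers (SD, n = 3), with an edgeR adjusted p of 0.328. Hepatocyte markers summed to 81274 to 89646 CPM in WT, against 74074 to 90044 CPM in Rbfox2 KO. Alb made up most of this sum, with means of 56690 CPM in WT and 56455 CPM in Rbfox2 KO. In Rbfox2 KO 1, Alb, Serpina1c, Cyp2e1 and Ttr were below every WT liver, while the other markers were within or above the WT range. Cyp2e1 was at 2324 CPM there, against 5164 to 6231 CPM in WT. Of 8 kidney markers, the genes of another organ rich in Cyp4a transcripts, 7 were under 3 counts in every library, among them Umod and Kap at 0, and the sum was 0.162 to 0.664 CPM over all libraries. Y-linked genes were present in every library and Xist was under 3 counts in all. In bulk tissue, fewer cells of a type and less RNA per cell cannot be told apart.

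The members covered a wide range of levels, and Cyp4a14 and Cyp4a10 made up most of the family. Per kilobase of merged exons, WT livers had 1263 ± 92.3 CPM (SD, n = 5) of Cyp4a14 and 924 ± 139 CPM per kilobase of Cyp4a10. Cyp4a12a had 70.7 ± 33.2, Cyp4a32 65.6 ± 16.5, Cyp4a12b 31.9 ± 15.3 and Cyp4a31 20.2 ± 4.19 CPM per kilobase. Cyp4a14 and Cyp4a10 did not overlap over the WT livers on this scale, but Cyp4a12a overlapped Cyp4a32, Cyp4a32 overlapped Cyp4a12b, and Cyp4a12b overlapped Cyp4a31. The order of the means was the same in Rbfox2 KO, from 1563 ± 721 (SD, n = 3) for Cyp4a14 and 1136 ± 590 for Cyp4a10 to 36.9 ± 16.5 CPM per kilobase for Cyp4a31. The per-length level of Cyp4a32 rests on 1536 annotated exon bases, of which 1527 are coding, while the other members have 2109 to 2601.

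By CPM in WT, Cyp4a14 ranked 52 and Cyp4a10 ranked 75 of 14654 tested genes. Together the 6 genes took 0.450% to 0.626% of counts in WT. In Rbfox2 KO 1 the share was 0.403% (95% Wilson interval 0.400% to 0.405%), the lowest of the 8 libraries. Rbfox2 KO 3 had the highest, 0.872% (0.869% to 0.875%). The intervals cover counting error only.

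The spread between mice differed from gene to gene. Among WT livers, Cyp4a14 had a coefficient of variation (CV) of 7.31%, smaller than that of all but 13.0% of tested genes, where the median gene had 15.4%. The CV of Cyp4a12a was 47.0% and that of Cyp4a12b 48.0%, at the 94.1 and 94.3 percentiles of all tested genes. In Rbfox2 KO the CV of all 6 genes was between 43.2% and 51.9%, at percentiles from 88.6 to 92.4, with Rbfox2 KO 1 the lowest of the 3 Rbfox2 KO livers for each gene.

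The PPARalpha-inducible genes Cyp4a10 and Cyp4a14 were high in 2 of 3 Rbfox2 KO livers and low in the other. WT 1 to 5 had 2411, 2058, 1802, 1688 and 1784 CPM of Cyp4a10, and Rbfox2 KO 1 to 3 had 965, 3002 and 3221 CPM. Rbfox2 KO 1 was below every WT liver and Rbfox2 KO 2 and 3 were above every one, so the groups overlapped. The log2 fold change of Cyp4a10 was 0.30 ± 0.33 (SE) by edgeR, with an adjusted p of 1.0 and an exact permutation p of 0.429. Cyp4a14 had 3544, 3241, 3146, 2983 and 3511 CPM in WT 1 to 5, against 1929, 4824 and 5442 CPM in Rbfox2 KO 1 to 3. The pattern was the same, with Rbfox2 KO 1 below and the other two Rbfox2 KO livers above all WT livers. Its log2 fold change was 0.31 ± 0.28 (SE) by edgeR, with an adjusted p of 1.0 and an exact permutation p of 0.321.

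Cyp4a31, the least abundant member, had the largest difference of the family. It had 44.1, 47.8, 49.1, 68.8 and 43.0 CPM in WT 1 to 5, against 49.8, 132 and 95.6 CPM in Rbfox2 KO 1 to 3. Rbfox2 KO 2 and 3 were above every WT liver, and Rbfox2 KO 1 was above every WT liver except WT 4. The means were 50.6 ± 10.5 CPM in WT livers (SD, n = 5) against 92.6 ± 41.4 CPM in Rbfox2 KO livers (SD, n = 3), a ratio of 1.83 and a log2 fold change of 0.87 ± 0.28 (SE). The exact permutation p was 0.0357, where the smallest possible with 5 against 3 livers is 0.0179. The edgeR adjusted p over all tested genes was 0.882 and did not pass, and over 20 alternatives the adjusted p ran from 0.209, by DESeq2, to 1.0. Cyp4a31 shares 7.33% of its stretches, and the part of read assignment in the difference was not tested.

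Cyp4a32, the remaining gene of the trio, showed no difference beyond the spread. Its level was 120, 131, 96.9, 66.5 and 89.9 CPM in WT 1 to 5, against 55.2, 142 and 131 CPM in Rbfox2 KO 1 to 3. The lowest and the highest value of all 8 livers were both in Rbfox2 KO. The log2 fold change was 0.12 ± 0.31 (SE) by edgeR, with an adjusted p of 1.0 and an exact permutation p of 0.804.

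Cyp4a12a, the male-predominant member, had 137, 144, 271, 234 and 70.6 CPM in WT 1 to 5, against 89.5, 264 and 213 CPM in Rbfox2 KO 1 to 3. All Rbfox2 KO values lay within the WT range. The log2 fold change was 0.14 ± 0.48 (SE) by edgeR, with an adjusted p of 1.0 and an exact permutation p of 0.857. Its near-copy Cyp4a12b had 58.7, 63.9, 122, 105 and 31.7 CPM in WT 1 to 5, against 49.0, 138 and 126 CPM in Rbfox2 KO 1 to 3. Rbfox2 KO 2 and 3 were above every WT liver and Rbfox2 KO 1 was within the WT range. The log2 fold change of Cyp4a12b was 0.45 ± 0.48 (SE) by edgeR, with an adjusted p of 1.0 and an exact permutation p of 0.321. With the counts of the pair summed, the log2 fold change was 0.24 ± 0.48 (SE, edgeR adjusted p = 1.0).

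**Figure D2:**
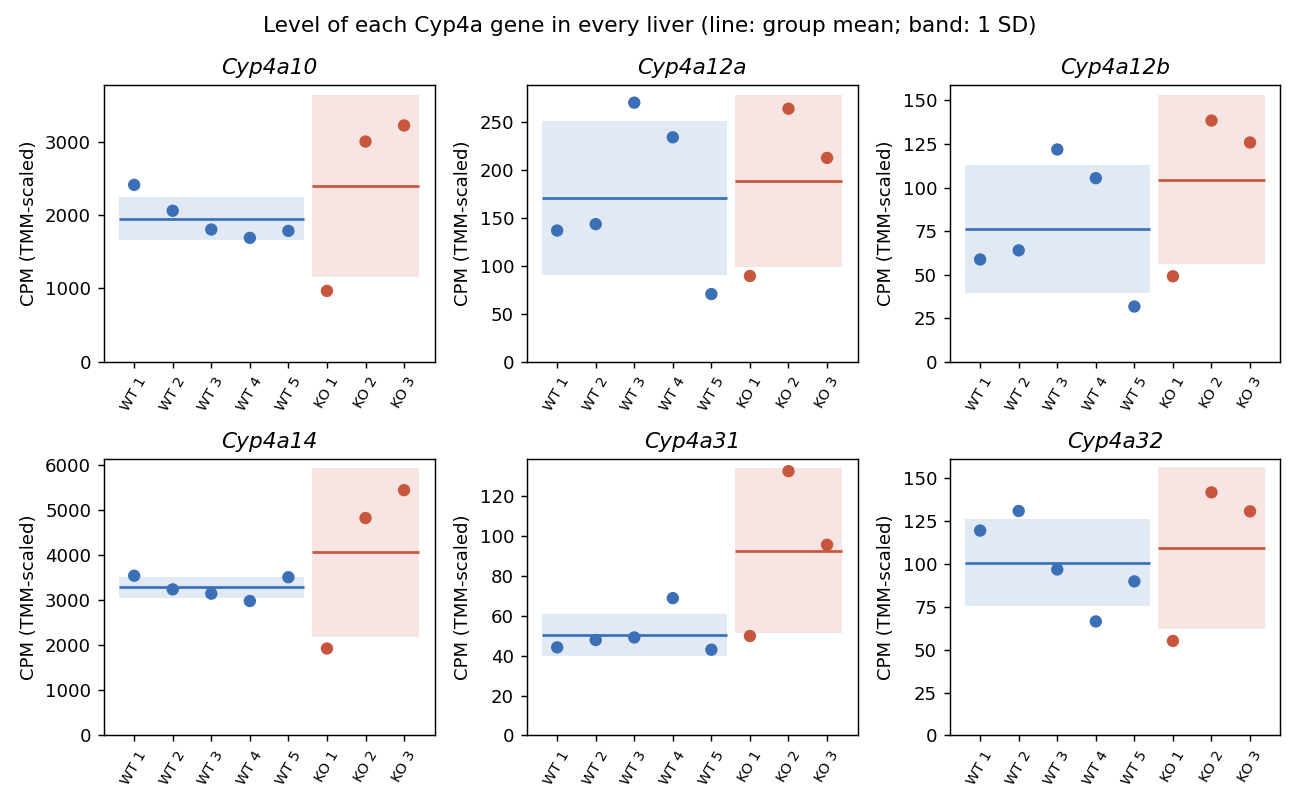
Level of each Cyp4a gene in TMM-scaled CPM (vertical axes, from 0) in the 5 WT (blue) and 3 Rbfox2 KO (red) livers, with the group mean as a line and 1 SD as a band. Rbfox2 KO 1 is below all WT livers for Cyp4a10 (965 CPM) and Cyp4a14 (1929 CPM), while Rbfox2 KO 2 and 3 are above all WT livers for both.

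Across the family, 0 of 6 genes passed an edgeR adjusted p of 0.05, as did 0 of all 14654 tested genes (0%). At an unadjusted p under 0.05 there was 1 member, Cyp4a31, where 4.74% of all tested genes reached that p, 2.41% with a higher and 2.33% with a lower level in Rbfox2 KO. The DESeq2 Wald test also called 0 members, against 0.404% of its genes, and limma-voom called 0 members and 0 of all genes. The groups did not overlap for 0 of 6 members, against 3.71% of tested genes. All 6 log2 fold changes were above 0, as were 50.2% of those of all tested genes, and their median was 0.30 against 0.00 for all genes. The members are not independent of each other, because all come from the same libraries and the genes within the pair and within the trio share stretches of read length.

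Without Rbfox2 KO 1 the fold changes of all 6 genes were larger. This direction was fixed beforehand, since that library was the lowest Rbfox2 KO liver for each gene. Log2 fold changes were then 0.67 ± 0.16 (SE) for Cyp4a10, 0.64 ± 0.13 for Cyp4a14 and 1.17 ± 0.19 for Cyp4a31, with edgeR adjusted p of 0.754, 0.580 and 0.228. These 3 genes had an unadjusted p under 0.05, a share that was 3.83% over all genes tested in that fit. Cyp4a12b, Cyp4a12a and Cyp4a32 had log2 fold changes of 0.79 ± 0.45, 0.48 ± 0.45 and 0.43 ± 0.22 (SE). The groups did not overlap for Cyp4a10, Cyp4a12b, Cyp4a14 and Cyp4a31, 4 of 6 members, against 8.95% of all genes. No member passed the edgeR adjusted threshold in this fit either. The part of the pancreatic transcripts or of the low urinary protein share of Rbfox2 KO 1 in these values was not tested.

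Leaving out 1 other library also moved these counts. Without WT 4, the groups did not overlap for 1 member, Cyp4a31, against 4.69% of all genes in that fit. Without Rbfox2 KO 2, 0 members had an unadjusted edgeR p under 0.05, against 6.46% of all genes. The lowest log2 fold change of Cyp4a31 over the fits that each lacked 1 library was 0.52, without Rbfox2 KO 2. Without Rbfox2 KO 3, the log2 fold changes of Cyp4a10 and Cyp4a14 were 0.026 and 0.040, and without Rbfox2 KO 2 they were 0.10 and 0.17.

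**Figure D3:**
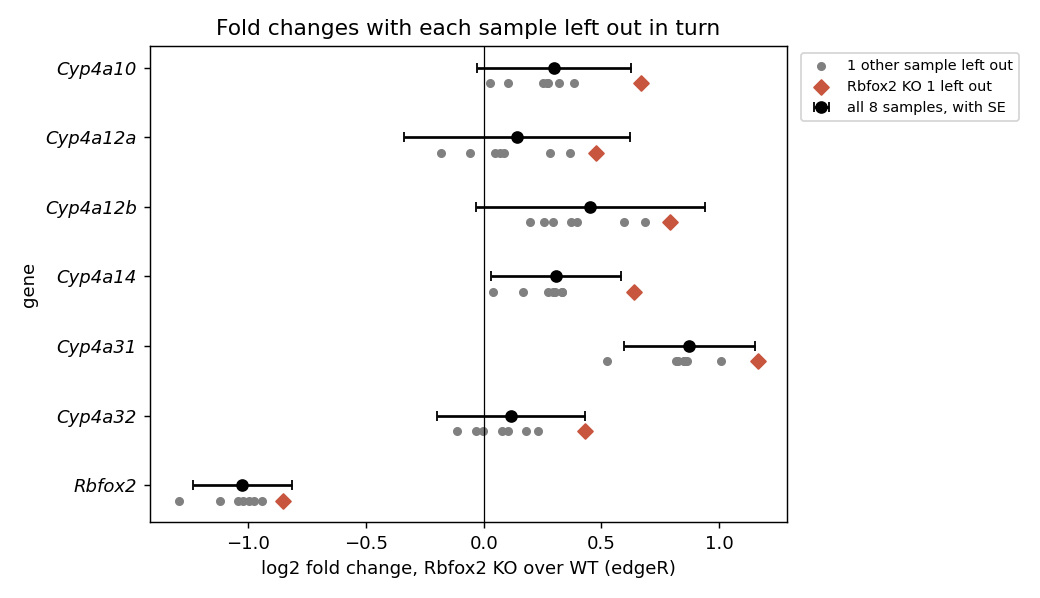
Log2 fold change of Rbfox2 KO over WT (horizontal axis, edgeR) for the 6 Cyp4a genes and Rbfox2. Black points are all 8 livers with the SE as a bar, grey points each leave out 1 liver, and red diamonds leave out Rbfox2 KO 1. The diamonds of all 6 Cyp4a genes lie to the right of the black points, at 0.43 to 1.17, and the grey points of Cyp4a12a and Cyp4a32 lie on both sides of 0.

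Ratios between members were compared next, since a ratio of counts within a library does not depend on library scaling. They were chosen after the values had been seen. The ratio of Cyp4a12a to Cyp4a12b counts was 2.33, 2.25, 2.22, 2.22 and 2.23 in WT 1 to 5, against 1.82, 1.91 and 1.69 in Rbfox2 KO 1 to 3. Every Rbfox2 KO liver was below every WT liver, although the levels of both genes varied several-fold among WT mice. The log2 ratio had an SD of 0.03 in WT, and only 0.0696% of 14364 pairs of neighbouring tested genes had a smaller one. The neighbouring pairs were not chosen for like sequence or level. The log2 ratio was 0.32 lower in Rbfox2 KO (a difference of -0.32), and 71.7% of the neighbouring pairs had a smaller absolute difference. Exact permutation gave p = 0.0179, the lowest value this design can reach, or 0.268 adjusted over 15 ratios. The groups did not overlap for this 1 of 15 ratios, against 3.63% of the neighbouring gene pairs. The difference stayed between -0.36 and -0.27 when each library was left out in turn. Since these genes share 35.8% and 36.2% of their stretches, the ratio of reads need not be the ratio of transcripts, and the part of read assignment in the difference was not tested.

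The other ratios did not separate the groups. Cyp4a31 to Cyp4a32 was 0.369, 0.365, 0.507, 1.03 and 0.478 in WT 1 to 5, against 0.903, 0.934 and 0.731 in Rbfox2 KO 1 to 3. WT 4 was the highest of all, so the groups overlapped (exact permutation p = 0.125). Cyp4a10 to Cyp4a14, the abundant members, was between 0.508 and 0.680 in WT and between 0.500 and 0.622 in Rbfox2 KO (exact permutation p = 0.714). It was 0.500 in Rbfox2 KO 1, where both genes were low, and 0.622 and 0.592 in Rbfox2 KO 2 and 3, where both were high.

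**Figure D4:**
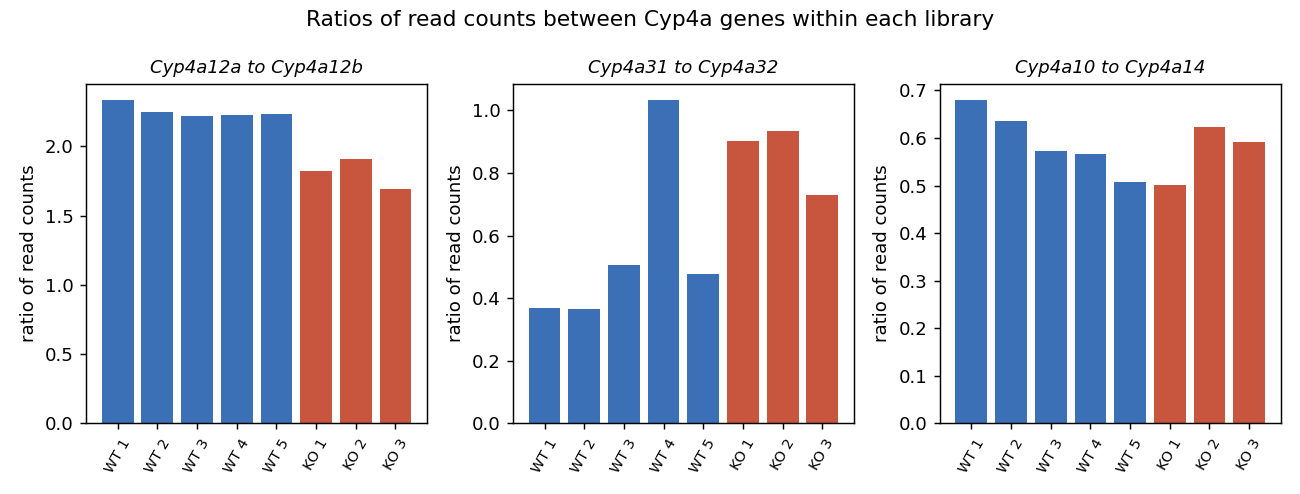
Ratio of read counts between Cyp4a genes within each library (vertical axes, from 0) for 3 of the 15 pairs, with WT in blue and Rbfox2 KO in red. Cyp4a12a to Cyp4a12b is 2.22 to 2.33 in WT and 1.69 to 1.91 in Rbfox2 KO, while the groups overlap for the other 2 ratios.

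Over the 8 livers, 4 of 15 pairs of members passed an adjusted p of 0.05 for the correlation of log2 CPM. The share that passes among all gene pairs was not computed. The closest genes outside the family reached similar r, 0.967 with Cyp4a10 (Gna12), 0.976 with Cyp4a12a (Nat8) and 0.947 with Cyp4a32 (Mapk1ip1). They were the highest among 8726 genes over 8 livers, so they cannot show whether the r within the family are unusual. Cyp4a10 and Cyp4a14 had a Pearson r of 0.971 and a Spearman rho of 0.929 (exact permutation p = 0.000471 and 0.00223, Pearson adjusted p = 0.00236 over 15 pairs), and r was 0.893 without the 2 livers farthest from the median of Cyp4a10. For each pair the 2 livers were chosen by the first-named gene alone. Cyp4a12a and Cyp4a12b had an r of 0.975 and a rho of 0.881 (exact permutation p = 0.000446 and 0.00724, Pearson adjusted p = 0.00236), and 0.951 without the 2 livers. Cyp4a10 and Cyp4a32 had an r of 0.904 and a rho of 0.881 (exact permutation p = 0.000422 and 0.00724, Pearson adjusted p = 0.00236), and 0.830 without the 2 livers. Cyp4a14 and Cyp4a32 had an r of 0.835 and a rho of 0.762 (exact permutation p = 0.00642 and 0.0368, Pearson adjusted p = 0.0241), and 0.676 without the 2 livers. The groups Cyp4a12a and Cyp4a12b on one side and Cyp4a10, Cyp4a14 and Cyp4a32 on the other had pairwise r between 0.357 and 0.525, none of which passed. Cyp4a12a and Cyp4a12b share stretches of read length with each other, as do Cyp4a10 and Cyp4a32. Cyp4a14 shares none, and no stretch is shared between the Cyp4a12 genes and the other members. All values of a library share its scaling factor. Each genotype has fewer than 6 livers, so no correlation within a genotype is given.

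Outside the family, the 3 genes with the most similar levels over the 8 livers were found for each member among 8726 genes with a mean of at least 5 CPM, as a description. For Cyp4a10 they included Gna12, which encodes a G protein subunit (r = 0.967), and Wrnip1 (r = 0.944). Wrnip1 was also among the closest to Cyp4a14 (r = 0.954), after Cyp2d10 (r = 0.962) and Amigo2 (r = 0.959). Nat8 was the closest gene to both Cyp4a12a (r = 0.976) and Cyp4a12b (r = 0.964). Cyp4a12b was followed by Igfals, the subunit that retains insulin-like growth factors in blood (r = 0.958), and Serpina1e (r = 0.954), and Cyp4a12a by H13 (r = 0.961) and Armc1 (r = 0.960). Closest to Cyp4a31 were Scarf1 (r = 0.946), Gstp-ps (r = 0.933) and Brcc3 (r = 0.922). Closest to Cyp4a32 were Mapk1ip1 (r = 0.947), Etfdh, which passes electrons from fatty acid oxidation to ubiquinone (r = 0.943), and Faf2 (r = 0.938).

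The genes around the Cyp4a reaction were then counted by function, and 0 genes of any list passed an edgeR adjusted p of 0.05. Of 14 other Cyp4 genes 9 were tested, with a median log2 fold change of 0.07. Cyp4a29, Cyp4a30b and Cyp4f40 had 0 counts in all libraries. Cyp4f16 was the 1 gene at an unadjusted p under 0.05, with 0.668 to 0.960 CPM in WT, against 3.48, 0.668 and 1.03 CPM in Rbfox2 KO 1 to 3. The most abundant of this list, Cyp4v3, was at 266 ± 17.0 CPM in WT livers (SD, n = 5) against 269 ± 48.3 CPM in Rbfox2 KO livers (SD, n = 3).

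Among 4 redox partners of P450 enzymes, 1 was higher and 1 lower at an unadjusted p under 0.05. Por, the reductase that supplies P450 enzymes with electrons, was at 222 ± 25.8 CPM in WT livers (SD, n = 5) against 273 ± 28.6 CPM in Rbfox2 KO livers (SD, n = 3). Its groups overlapped, with a log2 fold change of 0.30 ± 0.12 (SE, edgeR adjusted p = 0.995). Cyb5b, which encodes the outer mitochondrial membrane form of cytochrome b5, was at 178, 230, 209, 234 and 213 CPM in WT 1 to 5, against 123, 172 and 158 CPM in Rbfox2 KO 1 to 3. Every Rbfox2 KO liver was below every WT liver, with a log2 fold change of -0.49 ± 0.14 (SE, edgeR adjusted p = 0.725).

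Of 20 genes that handle omega-hydroxylated and other fatty acids up to their peroxisomal oxidation, 9 had a log2 fold change above 0 and 11 below, with a median of -0.02. Ehhadh, the bifunctional enzyme of peroxisomal beta-oxidation, was the 1 gene at an unadjusted p under 0.05. It had 616, 598, 724, 687 and 756 CPM in WT 1 to 5, against 749, 1335 and 1549 CPM in Rbfox2 KO 1 to 3. Rbfox2 KO 2 and 3 were above all WT livers and Rbfox2 KO 1 was just below WT 5, a position like that of Cyp4a31. The log2 fold change was 0.84 ± 0.20 (SE) by edgeR, with an adjusted p of 0.483.

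PPARalpha and 6 of its partners and regulators had a median log2 fold change of -0.09, and 0 of these 7 genes had an unadjusted p under 0.05. Ppara itself, which is named for its role and outside the rule for named genes, had 65.9 ± 24.9 CPM in WT livers (SD, n = 5) against 47.1 ± 16.7 CPM in Rbfox2 KO livers (SD, n = 3). Of 16 other PPARalpha targets, 11 were above and 5 below 0, with a median of 0.05. Fgf21, the fasting hormone of the liver, was the 1 gene at an unadjusted p under 0.05, with 11.2 ± 3.31 CPM in WT livers (SD, n = 5) against 18.6 ± 5.20 CPM in Rbfox2 KO livers (SD, n = 3) (log2 fold change 0.73 ± 0.25 SE, edgeR adjusted p = 0.894). In contrast to the Cyp4a genes, Fgf21 was highest in Rbfox2 KO 1, at 24.3 CPM.

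**Figure D5:**
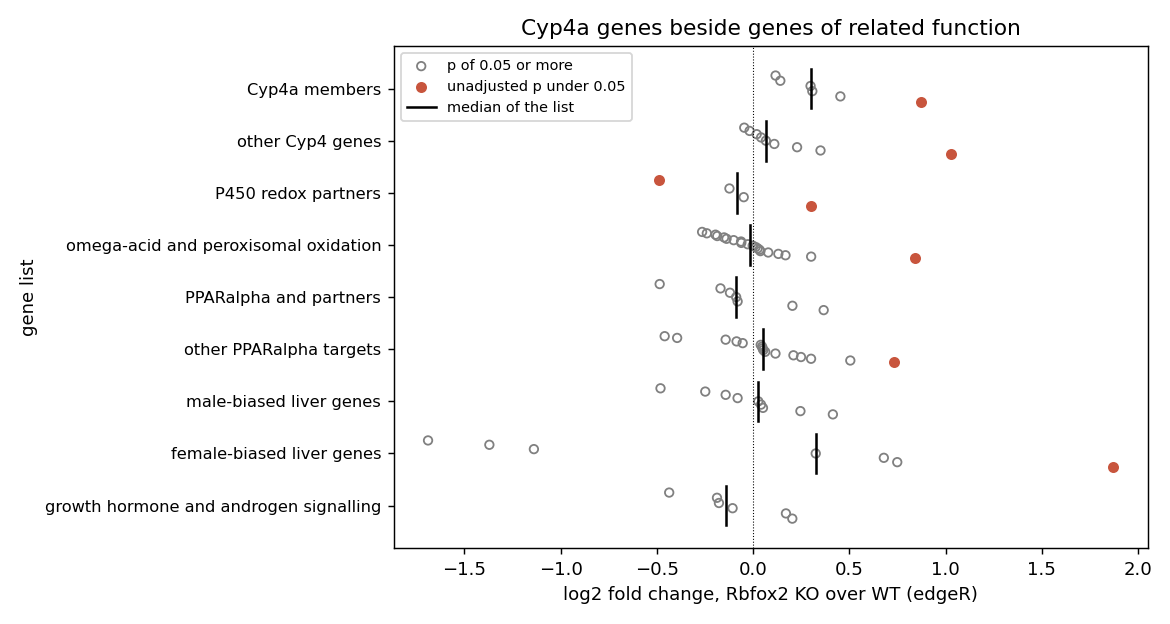
Log2 fold change of Rbfox2 KO over WT (horizontal axis, edgeR) for the tested genes of 9 lists, 1 point a gene, filled where the unadjusted p is under 0.05, with the median of each list as a black line. The median of the 6 Cyp4a genes is 0.30, that of the 20 genes of omega-acid and peroxisomal oxidation is -0.02, and no gene passed the adjusted threshold.

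Genes that differ between the sexes in mouse liver were set beside Cyp4a12a. Of 9 male-biased genes and of 6 genes of growth hormone and androgen signalling, 0 had an unadjusted p under 0.05, with median log2 fold changes of 0.03 and -0.14. Cyp2d9, a male-biased P450, was at 578, 537, 840, 728 and 469 CPM in WT 1 to 5, against 148, 812 and 829 CPM in Rbfox2 KO 1 to 3. Its lowest value in WT, in WT 5, and its highest, in WT 3, were those of Cyp4a12a too. Of the 9 male-biased genes, 7 were highest among WT livers in WT 3, 3 were lowest in WT 5, and 2 were both. Of 10 female-biased genes 7 were tested and 1, Cux2, had an unadjusted p under 0.05. Cux2 was high in Rbfox2 KO 3 alone, with 0.408, 0.315 and 2.96 CPM in Rbfox2 KO 1 to 3. In WT it was at 0.177 to 0.443 CPM (exact permutation p = 0.214). Cyp2b9, the most abundant female-biased gene of the list, was at 81.6, 73.6, 1.79, 17.0 and 93.9 CPM in WT 1 to 5, against 7.25, 40.3 and 2.82 CPM in Rbfox2 KO 1 to 3. Among WT livers it was highest in WT 5, where Cyp4a12a was lowest, and lowest in WT 3, where Cyp4a12a was highest. Of the 7 tested female-biased genes, 4 were highest in WT 5, 5 were lowest in WT 3, and 3 were both. Several of these genes were at low levels, such as Cux2 with a WT mean of 0.341 CPM. For neither tally was the share of all tested genes with the same extremes computed. WT 3 also had the lowest scaling factor of the 8 libraries (0.821). Of 13 circadian clock genes 0 had an unadjusted p under 0.05, with a median log2 fold change of -0.04.

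The motif TGCATG, which Rbfox proteins bind in RNA as UGCAUG, was counted on the sense strand of the main spliced transcript of each member. It occurred 1 time each in Cyp4a12a and Cyp4a12b, 2 times in Cyp4a14 and 0 times in Cyp4a10, Cyp4a31 and Cyp4a32. Among the longest coding transcripts of 21500 genes, which differ in length, 51.8% hold it. Introns were not analysed here. Of the members, Cyp4a32 had an entry among the RefSeq promoters of GRCm38.p6 used here, with 250 bases before and 50 after the start. On both strands this window held 0 matches to the PPAR half-site AGGTCA, which 16.3% of all promoters hold, and 0 to the STAT5 motif TTCNNNGAA, held by 8.30%.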

How the data were processed

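The authors deposited raw counts of reads for each Ensembl gene, from liver libraries selected for poly(A) RNA and sequenced from both ends at 100 bases. Per the labels, the processing used CASAVA 1.8.4, TopHat2 2.0.11 and featureCounts with the build GRCm38 (mm10). The strand setting of counting and the treatment of reads with several alignments are not given in the sources used here.

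Genotypes came from the labels. Of 46078 genes, 45143 had a symbol in GENCODE M21. Genes were filtered with filterByExpr with libraries scaled by TMM (trimmed mean of M-values). The quasi-likelihood test of edgeR 4.0.16 (robust, R 4.3.3) compared the genotypes, two-sided and without covariates, at an adjusted p of 0.05 (Benjamini-Hochberg, all tested genes). Each SE was computed as the log2 fold change over the root of its F statistic. CPM are TMM-scaled, and log2 CPM had a prior count of 2. Means were also compared by two-sided exact permutation over all 56 assignments of samples to groups of 5 and 3. A count of 3, taken as the floor, equals 0.0793 to 0.121 CPM. Alternatives covered other scalings and filters, DESeq2 1.42.0, limma-voom (limma 3.58.1), a non-robust fit, a replicate block, near-identical copies summed, and each sample left out.

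The members, gene lists and tests were chosen with earlier results of these data known. Named genes were all members and Rbfox2, and of other lists the 3 most abundant and the 2 with the smallest p, of which a selection is given; the values of 3 genes are not reported here. Sequence comparisons used GENCODE M21 transcripts. The procedure was tested on simulated counts. No 2 samples of a group agreed within sampling noise (chi-square per degree of freedom 45.5 to 346).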

Additional observations from a re-analysis of the deposited data

Results flagged for a closer look

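In 41 values examined in the 5 WT samples, 5 had a sample set apart from the others by more than 0.71 of the range, where chance alone gives 2.05. Cyp4a31 was at 68.8 CPM in WT 4 and at 43.0 to 49.1 CPM in the other WT livers. In the same liver the ratio of Cyp4a31 to Cyp4a32 counts was 1.03, against 0.365 to 0.507 in the others. The ratio of Cyp4a12a to Cyp4a12b counts was 2.33 in WT 1 and 2.22 to 2.25 in the others. Summed pancreatic exocrine markers were at 17.5 CPM in WT 1 and at 4.88 to 5.41 CPM in the others. Summed liver endothelial markers were at 128 CPM in WT 5 and at 114 to 117 CPM in the others.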

How the results depend on the processing

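The log2 fold changes of Cyp4a10, Cyp4a12b, Cyp4a14 and Cyp4a31 stayed above 0 in all 20 alternatives run for each, with lowest values of 0.026, 0.20, 0.040 and 0.31 (the last with copies summed, otherwise 0.52), and no member passed the adjusted threshold in any. Scaled by library totals, the median log2 fold change of all genes was 0.12, and Cyp4a31 then lay 0.81 above it. By DESeq2, Rbfox2 passed (-1.03, DESeq2 adjusted p = 0.0019). With near-identical copies summed, 0 members had an unadjusted p under 0.05, against 1, and 693 of 14651 genes did. That sum says nothing about Cyp4a31 itself, since Cyp4a10 made up 1949 of its 2100 CPM in WT. With each sample left out, members at an unadjusted p under 0.05 ranged from 0 to 3, members whose groups did not overlap from 0 to 4, the log2 fold change of Cyp4a10 from 0.026 to 0.67, that of Cyp4a14 from 0.040 to 0.64, that of Cyp4a12a from -0.18 to 0.48 and that of Cyp4a32 from -0.12 to 0.43. Cyp4a12a was below 0 without WT 5 or Rbfox2 KO 2, and Cyp4a32 without WT 4, Rbfox2 KO 2 or Rbfox2 KO 3. The cause was not tested.

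Same-numbered livers of both groups deviated together with correlations of 0.163, 0.0484 and 0.170. No sample correlated best with its own number, so the numbers were not taken to pair them. With the sample number as a replicate block, Cyp4a12a (-0.033) and Cyp4a32 (-0.18) reversed, Cyp4a10 was at 0.04, Cyp4a31 at 0.87 and Rbfox2 at -0.96, with 0 members past the adjusted threshold, 1 at an unadjusted p under 0.05 and 0 without overlap. All genes at an unadjusted p numbered 739 with the block and 694 without it, with 0 past the adjusted threshold by edgeR in both.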
